A study of Mus musculus with 1 sample.

Results

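The genes described here are 10 immediate early genes, chosen by name as Fos, Fosb, Jun, Junb, Jund, Egr1, Ier2, Nr4a1, Dusp1 and Atf3, among 32285 genes in the matrix. All 10 were found. They were measured by single-cell RNA-seq of 1 library of lineage-negative, Kit-positive bone marrow cells, the fraction that holds haematopoietic stem cells and their early descendants. The mice were C57BL/6 controls with floxed Brd9 (Brd9fl/fl) and, per the methods, no Mx1-Cre, so the gene was not deleted. They had received polyinosinic-polycytidylic acid (pIpC), which induces interferon, at 20 mg/kg in 3 doses given every other day, and marrow was taken 8 weeks later. The sample's labels name a CD45.2(+) donor and a CD45.1(+) CD45.2(-) recipient and put the injections 4 weeks after the graft. The series text instead speaks of primary mice injected from 4 weeks of age, and the methods name no graft for this library, so which applies is unsettled. The cells were sorted by flow cytometry before loading, and no source used here says how many animals were pooled. With 1 library there is no replicate. No test was made, and every interval given is an exact 95% interval that covers counting error only.

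Immediate early genes are switched on within minutes of a stimulus, without new protein synthesis, by kinases that act on factors already bound to their promoters. FOS and JUN proteins pair through leucine zippers to form AP-1, which binds DNA at a short palindrome. FOS proteins need a JUN partner, while JUN proteins can also pair with each other. In marrow these genes are known for activity in quiescent stem cells, and also for being induced when tissue is dissociated and cells are sorted.

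The promoters are shown first, since the genes are usually grouped by their shared induction. RefSeq promoter windows (GRCm38.p6) were matched for 8 of the 10 genes, all but Egr1 and Ier2. The 250 bases before each RefSeq start were searched on both strands, and nothing farther upstream. The short site TGACG, bound by the CREB and ATF factors, was in 6 of these 8 windows and in 17.8% of all 32851 windows. The whole palindrome TGACGTCA, which contains that short site on each strand, was in 1 of the 8, that of Dusp1, and in 1.55% of all. The AP-1 site TGANTCA was in none of the 8 and in 6.75% of all. The serum response element, read only as an exact CC, 6 bases of A or T and GG, was in none of the 8 and in 1.47% of all. Elements with a mismatch or farther upstream would have been missed. The EGR site GCGNGGGCG was in 2 of the 8, Fosb and Nr4a1, and in 4.70% of all. These are matches of letters and not tests of binding. The stretches that hold the short site are printed on the gene's strand, with every TGACG or its reverse complement CGTCA in capitals. They lie at chr12:85473741-85473860 for Fos (plus strand), chr7:19310046-19310165 for Fosb (minus), chr8:84978755-84978874 for Junb (minus), chr15:101266596-101266820 for Nr4a1 (plus), chr17:26508564-26508683 for Dusp1 (minus) and chr1:191183334-191183453 for Atf3 (minus).
Fos: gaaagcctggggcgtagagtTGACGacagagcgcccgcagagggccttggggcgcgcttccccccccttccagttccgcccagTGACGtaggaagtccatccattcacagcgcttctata
Fosb: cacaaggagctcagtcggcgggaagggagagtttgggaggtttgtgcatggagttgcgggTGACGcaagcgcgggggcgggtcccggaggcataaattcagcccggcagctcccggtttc
Junb: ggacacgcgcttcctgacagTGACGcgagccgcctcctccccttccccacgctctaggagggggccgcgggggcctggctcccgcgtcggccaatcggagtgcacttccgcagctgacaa
Nr4a1: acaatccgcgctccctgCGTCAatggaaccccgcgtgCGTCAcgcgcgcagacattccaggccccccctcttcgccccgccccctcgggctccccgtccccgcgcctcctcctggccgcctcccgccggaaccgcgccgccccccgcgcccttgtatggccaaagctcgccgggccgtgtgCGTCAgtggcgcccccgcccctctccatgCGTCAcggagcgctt
Dusp1: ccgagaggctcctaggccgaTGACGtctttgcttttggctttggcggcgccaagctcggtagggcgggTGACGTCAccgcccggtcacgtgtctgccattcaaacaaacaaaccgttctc
Atf3: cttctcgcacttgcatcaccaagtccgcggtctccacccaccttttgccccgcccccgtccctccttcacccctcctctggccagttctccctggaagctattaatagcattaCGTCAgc
The site nearest the RefSeq start began 66 bases before it in Fos, 60 in Fosb, 106 in Junb, 40 in Nr4a1, 140 in Dusp1 and 7 in Atf3. For Nr4a1, Dusp1 and Atf3 this start lies inside the gene span given below, and not at its edge. The windows of Jun (chr4:95052223-95052472) and Jund (chr8:70697489-70697738) held none. The Jund window ends before the gene span given below and does not adjoin it.

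The library held 8817 barcodes, of which 7645 passed the study's limits, with a median of 18696 unique molecular identifiers (UMIs, each 1 captured RNA molecule) and 4171 genes per cell. Cells were thinned to 5000 UMIs (99 shallower cells were left out) and gated by the mean score of marker genes, which left 6110 cells in a gate and 1436 in none. A gate cut from a score is a range and not a cell type, and 1433 cells lay near the cuts. The gates are named stem-like (687 cells), Flt3 multipotent-like (664), granulocyte-monocyte-like (1604), monocyte-like (669), dendritic-like (219), basophil or mast-like (409), megakaryocyte-like (563), early erythroid-like (851) and late erythroid-like (327). All markers of a gate's list were 1.5-fold or more above the other gated cells, except for 1 of 8 in megakaryocyte-like cells. In the early erythroid-like gate, however, only 1 marker, Car1, was among its 10 leading genes, and in the granulocyte-monocyte-like gate 2 of the 10 were neutrophil markers. The first leading gene of the Flt3 multipotent-like gate was Dntt, a marker on the lymphoid list. A gate led by Prg2, of 62 cells, also had immunoglobulin genes among its leading genes and was given no name or count. Lymphoid-like (28 cells), neutrophil-like (19) and T or NK cells (8) were too few to describe. Most markers of stroma, T and NK cells were rare, with 1 UMI of Cxcl12, 4 of Col1a1 and 37 of Cd3d in all cells kept. Emcn (309 UMIs), Klrb1c (215), Trbc1 (199) and Trbc2 (150) were more frequent. Nkg7 (49329 UMIs) and Pecam1 (5509), which stand on those lists, were widely found in the progenitors. Depth was unequal, from a median of 8430 UMIs in stem-like cells to 32683 in early erythroid-like cells, so levels are given both as counts per 1000000 UMIs of the gate (CPM), summed over its cells, and as UMIs per cell.

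Summed, the 10 genes were highest in stem-like cells and lowest in late erythroid-like cells. They took 0.793% of all UMIs in the stem-like gate, 0.551% in basophil or mast-like cells, 0.412% in megakaryocyte-like cells and 0.0592% in late erythroid-like cells. Per cell the order differed, with 79.1 UMIs of the 10 genes in a basophil or mast-like cell, 76.2 in a stem-like cell, 70.7 in a megakaryocyte-like cell and 17.5 in a late erythroid-like cell. Of the 10, 8 had their highest CPM in stem-like cells. The exceptions were Dusp1, for which the stem-like and the basophil or mast-like gates did not differ beyond counting error, and Atf3, which was highest in dendritic-like cells. In UMIs per cell only Junb, Egr1 and Nr4a1 were highest in stem-like cells. Fos, Fosb, Ier2 and Dusp1 were then highest in basophil or mast-like cells, Jun and Jund in megakaryocyte-like cells and Atf3 again in dendritic-like cells.

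**Figure D1:**
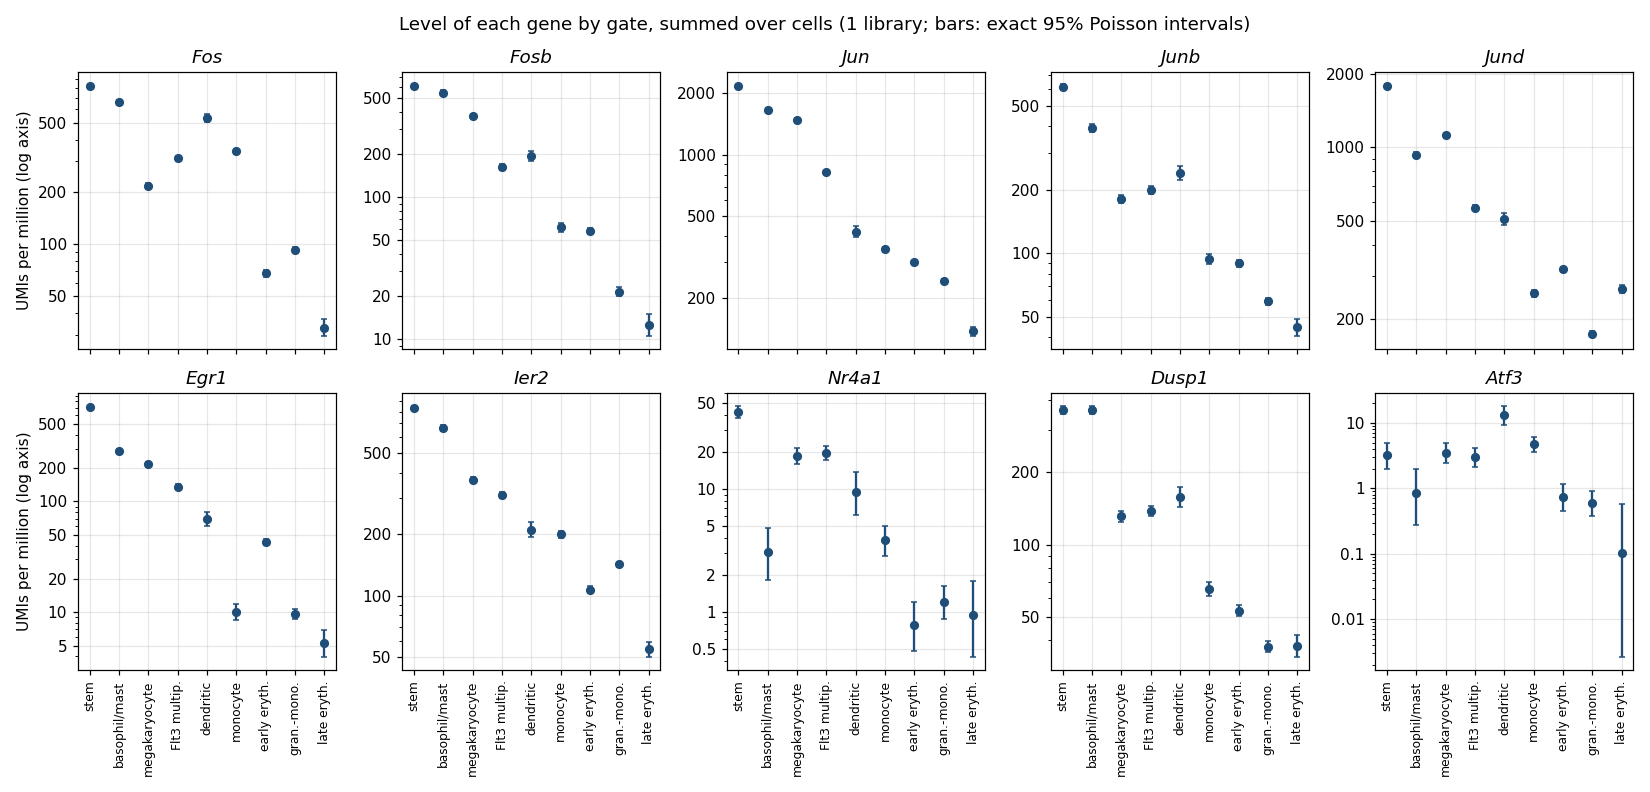
Level of each of the 10 genes (CPM, log axis, its range differs between panels) in 9 gates ordered by the summed level of the 10 genes, with points for the sum over the cells of 1 library and bars for exact 95% Poisson intervals. Of the 10, 8 are highest in the stem-like gate on the left, and only Jun falls at every step to the late erythroid-like gate on the right.

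Fos (chr12:85473890-85477273, GRCm38, plus strand) encodes the founding partner of JUN in AP-1 and is the usual marker of recent stimulation. Its level was 812 CPM in stem-like, 658 in basophil or mast-like, 536 in dendritic-like, 343 in monocyte-like, 313 in Flt3 multipotent-like, 217 in megakaryocyte-like, 93.1 in granulocyte-monocyte-like, 68.0 in early erythroid-like and 33.1 in late erythroid-like cells. Each neighbour in that order differed beyond counting error, and the span was 24.6-fold (21.9 to 27.6). Per cell it was highest in basophil or mast-like cells, at 9.44 UMIs, against 7.80 in stem-like and 6.96 in monocyte-like cells. In cells thinned to 5000 UMIs, Fos was detected in 73.9% of stem-like cells (70.5% to 77.2%) and in 12.8% of late erythroid-like cells.

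Fosb (chr7:19302696-19310051, minus strand) encodes a close relative of FOS whose transcript usually appears after that of Fos. Its level was 604 CPM in stem-like, 546 in basophil or mast-like, 375 in megakaryocyte-like, 195 in dendritic-like, 163 in Flt3 multipotent-like, 61.2 in monocyte-like, 58.0 in early erythroid-like, 21.6 in granulocyte-monocyte-like and 12.6 in late erythroid-like cells. Monocyte-like and early erythroid-like cells did not differ beyond counting error, and the span was 47.8-fold (39.9 to 57.7). Megakaryocyte-like cells stood next after the 2 highest gates for Fosb but below 5 gates for Fos.

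The balance of Fosb to Fos differed between gates. For every 100 Fos UMIs there were 173 Fosb UMIs in megakaryocyte-like cells (164 to 182). There were 85.3 in early erythroid-like, 83.0 in basophil or mast-like and 74.4 in stem-like cells (71.4 to 77.5). Monocyte-like cells had only 17.9 (16.6 to 19.2) and granulocyte-monocyte-like cells 23.2. The ratio moved with depth within some gates. Over 3 bins of megakaryocyte-like cells by UMIs, from low to high, it was 139, 155 and 208, and in early erythroid-like cells 74.1, 103 and 92.0. Among cells of 8000 to 16000 UMIs it was 148 in megakaryocyte-like, 77.0 in stem-like, 60.6 in early erythroid-like and 20.2 in monocyte-like cells.

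**Figure D2:**
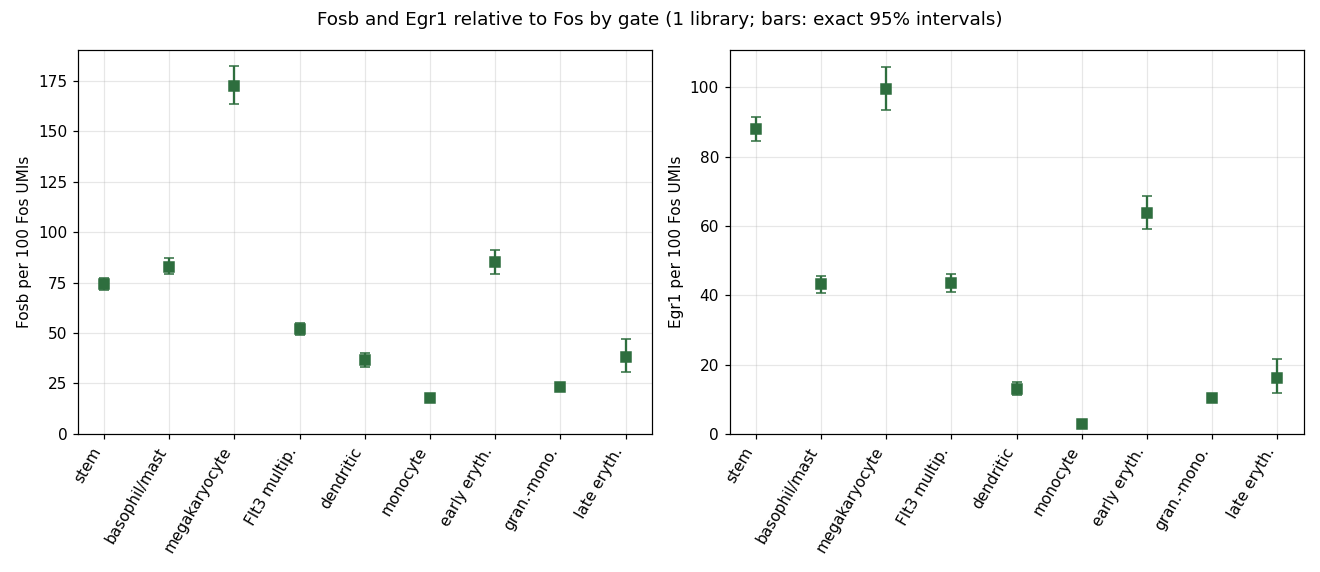
Fosb UMIs (left) and Egr1 UMIs (right) per 100 Fos UMIs in 9 gates of 1 library, with squares for the ratio of summed counts and bars for exact 95% intervals. Megakaryocyte-like cells have the highest ratio in both panels, at 173 and 99.5, and monocyte-like cells the lowest, at 17.9 and 2.94.

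Jun (chr4:95049034-95052222, minus strand), the founding JUN family gene and an intronless one, was the most abundant of the 10 at 614 CPM over all cells kept. Its level was 2177 CPM in stem-like, 1664 in basophil or mast-like, 1485 in megakaryocyte-like, 821 in Flt3 multipotent-like, 422 in dendritic-like, 346 in monocyte-like, 298 in early erythroid-like, 243 in granulocyte-monocyte-like and 137 in late erythroid-like cells. No neighbouring pair of these 9 gates overlapped within counting error, and the span was 15.9-fold. Per cell Jun was highest in megakaryocyte-like cells, at 25.5 UMIs against 20.9 in stem-like cells.

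Jund (chr8:70698949-70700616, plus strand) encodes the JUN protein that is usually present in resting cells, and it changed least among the AP-1 genes. It had 1773 CPM in stem-like, 1122 in megakaryocyte-like, 934 in basophil or mast-like, 569 in Flt3 multipotent-like, 512 in dendritic-like, 319 in early erythroid-like, 266 in late erythroid-like, 255 in monocyte-like and 175 in granulocyte-monocyte-like cells. The span was 10.1-fold (9.83 to 10.4), and late erythroid-like and monocyte-like cells did not differ beyond counting error. Jund exceeded Jun in the late erythroid-like gate, with 194 Jund UMIs per 100 Jun UMIs, and also in dendritic-like (121, 112 to 131) and early erythroid-like cells (107, 104 to 111). It was below Jun in the remaining 6 of the 9 gates, with 81.4 in stem-like and 56.1 in basophil or mast-like cells. These are ratios of captured molecules, since 3′ counts carry no length term.

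Junb (chr8:84974484-84978718, minus strand) encodes a JUN protein often set against JUN in growth control. It had 614 CPM in stem-like, 394 in basophil or mast-like, 240 in dendritic-like, 200 in Flt3 multipotent-like, 181 in megakaryocyte-like, 93.5 in monocyte-like, 89.4 in early erythroid-like, 59.0 in granulocyte-monocyte-like and 44.5 in late erythroid-like cells. Monocyte-like and early erythroid-like cells did not differ beyond counting error. Relative to Jun it was lowest in megakaryocyte-like cells, with 12.2 Junb UMIs per 100 Jun UMIs, and highest in dendritic-like cells, with 56.8.

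Egr1 encodes a zinc finger factor that restrains stem cell cycling and directs monocyte development, and it had the widest measured span of the 9 genes other than Atf3. Its level was 713 CPM in stem-like, 284 in basophil or mast-like, 216 in megakaryocyte-like, 136 in Flt3 multipotent-like, 69.5 in dendritic-like, 43.3 in early erythroid-like, 10.1 in monocyte-like, 9.67 in granulocyte-monocyte-like and 5.28 in late erythroid-like cells, a span of 135-fold (102 to 182). Monocyte-like and granulocyte-monocyte-like cells did not differ beyond counting error. A monocyte-like cell held 0.205 Egr1 UMIs but 6.96 Fos UMIs, a ratio of 2.94 Egr1 UMIs per 100 Fos UMIs (2.46 to 3.49), against 87.9 in stem-like and 99.5 in megakaryocyte-like cells. In early erythroid-like cells this ratio was 94.3 in the bin of lowest UMIs and 29.0 in that of highest. In thinned cells Egr1 was detected in 79.0% of the stem-like gate, 3.74% of the monocyte-like gate and 3.36% of the late erythroid-like gate. The part of free RNA in the low shares was not tested. Of the 25 monocyte-like cells with Egr1, 23 also had Fos.

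Ier2 (chr8:84661331-84662852, minus strand) encodes a small nuclear protein induced with Fos and Jun. Its level was 834 CPM in stem-like, 663 in basophil or mast-like and 369 in megakaryocyte-like cells, and 54.5 in late erythroid-like cells, a span of 15.3-fold. It was the member least reduced in granulocyte-monocyte-like cells, at 143 CPM. Nr4a1 (chr15:101254269-101274795, plus strand) encodes an orphan nuclear receptor, and it was rare, at 7.81 CPM over all cells kept. It had 42.4 CPM in stem-like (280 UMIs), 19.5 in Flt3 multipotent-like, 18.5 in megakaryocyte-like and 9.41 in dendritic-like cells. In basophil or mast-like cells, where Fos, Jun and Fosb were near their highest, Nr4a1 had 3.07 CPM (18 UMIs). Its lowest level was 0.777 CPM in early erythroid-like cells (20 UMIs), a span of 54.6-fold (34.7 to 90.7).

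Dusp1 (chr17:26505590-26562128, minus strand) encodes a phosphatase that switches off the MAP kinases that induce this programme. It had 364 CPM in basophil or mast-like and 363 CPM in stem-like cells, and the interval of their ratio was 0.944 to 1.06. It had 158 in dendritic-like, 138 in Flt3 multipotent-like, 131 in megakaryocyte-like, 65.1 in monocyte-like, 52.9 in early erythroid-like, 37.7 in late erythroid-like and 37.6 in granulocyte-monocyte-like cells. In GENCODE M21 its span overlaps 2 unnamed genes on the same strand, so its counts are less certain. Atf3 (chr1:191170296-191218039, minus strand) encodes a stress-induced relative of AP-1 and was nearly absent, with 299 UMIs in all cells kept. Its level was 13.4 CPM in dendritic-like cells (37 UMIs), 4.72 in monocyte-like (64 UMIs), 3.51 in megakaryocyte-like, 3.18 in stem-like and 0.852 in basophil or mast-like cells (5 UMIs). Late erythroid-like cells had 1 UMI. Of the 9 other genes none was highest in dendritic-like cells.

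Each gate was next set against all other gated cells, and a gene was called at a 2-fold ratio in CPM among 13147 genes with at least 50 UMIs. All 10 genes reached that count. In stem-like cells 9 of 10 were 2-fold or more higher, where 25.6% of all genes were. The ratio was 11.4 for Egr1 (11.0 to 11.8), 8.23 for Nr4a1 (7.12 to 9.50), 5.54 for Fosb (5.34 to 5.74) and 5.33 for Junb (5.15 to 5.52). Jund, Dusp1, Fos, Jun and Ier2 lay between 4.52 and 4.19, and Atf3 had 1.70 (1.03 to 2.66). The median over the 10 was 4.47 and that over all genes tested 1.24.

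In basophil or mast-like cells 8 of 10 were 2-fold or more higher, where 7.7% of all genes were. Fosb had a ratio of 4.75, Dusp1 4.33, Fos 3.36, Egr1 3.23, Ier2 3.14, Jun 3.10, Junb 3.05 and Jund 2.11. Nr4a1 had 0.418 (0.246 to 0.664) and Atf3 0.427 (0.137 to 1.01), the latter on 5 UMIs. In megakaryocyte-like cells 5 of 10 were higher, against 13.7% of all genes, namely Fosb (3.26), Nr4a1 (3.00), Jun (2.89), Jund (2.74) and Egr1 (2.48), while Fos had a ratio of 0.996 (0.952 to 1.04). With each cell weighted equally 0 of the 10 passed 2-fold, and those 5 ratios lay between 1.52 and 1.99. Among cells of 8000 to 16000 UMIs 0 passed as well. The share of all genes past 2-fold under these settings is not given. In Flt3 multipotent-like cells 1 of 10 was higher, Nr4a1 at 3.33, against 6.85% of all genes. In dendritic-like cells 2 of 10 were higher, Atf3 at 7.97 and Fos at 2.55, against 10.4%.

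The granulocyte, monocyte and red cell gates lay lower. In granulocyte-monocyte-like cells 9 of 10 were 2-fold or more lower, where 22.4% of all genes were, from Egr1 at a ratio of 0.0722 to Fos at 0.344, and Ier2 had 0.527. In late erythroid-like cells 9 of 10 were lower, against 35.9% of all genes, and Jund had 0.552. In early erythroid-like cells 8 of 10 were lower, against 27% of all genes, with Jund at 0.634 and Junb at 0.576. Monocyte-like cells were mixed, with 1 of 10 higher (Atf3 at 2.95, against 6.24%) and 2 of 10 lower (Egr1 at 0.0936 and Fosb at 0.424, against 17.9%). Their ratio was 1.69 for Fos (1.64 to 1.75), and it turned to 0.748 among cells of 8000 to 16000 UMIs. In that window 8 of the 10 were lower, and 7 were with each cell weighted equally. The share of all genes lower under these settings is not given, so the counts of 8 and 7 have no background.

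**Figure D3:**
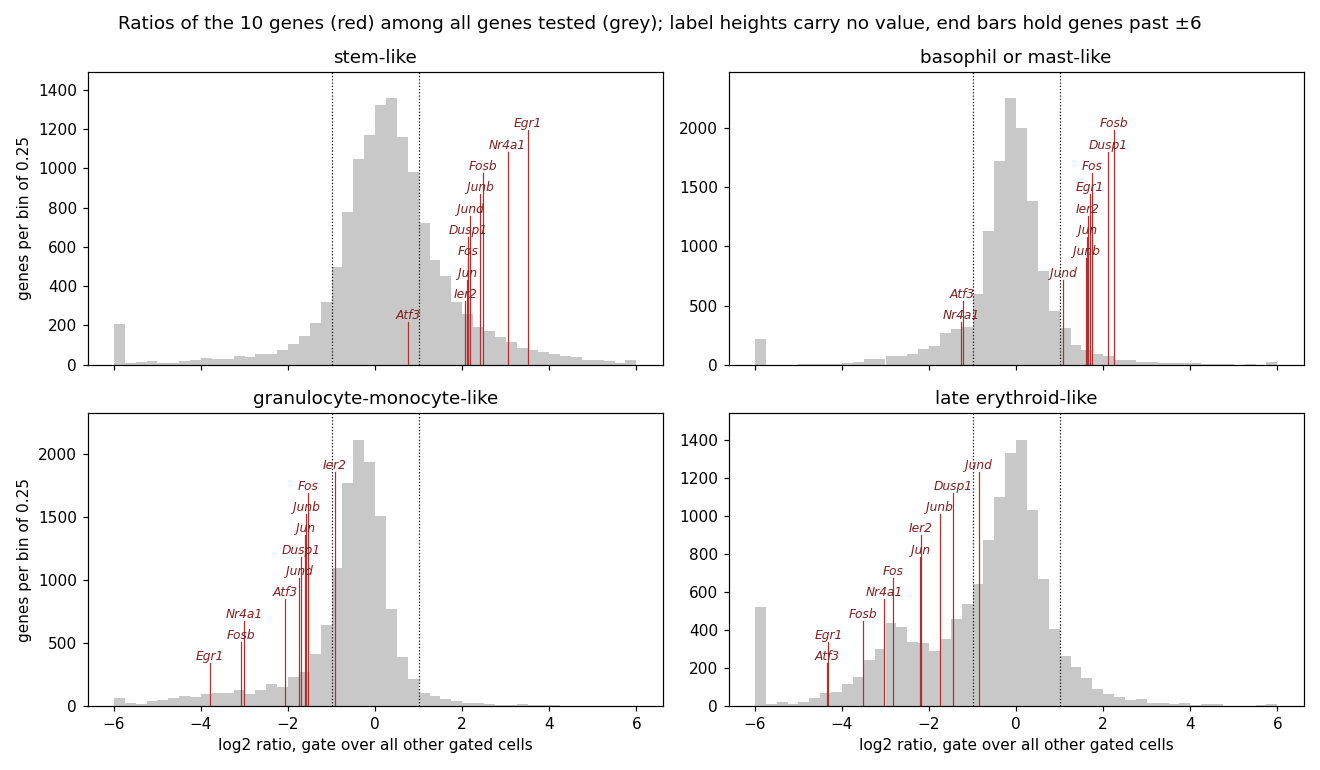
Log2 ratio of CPM in a gate over all other gated cells for 13147 genes (grey bars, genes per bin) with the 10 immediate early genes as red lines, in 4 gates of 1 library; dotted lines mark 2-fold and the end bars hold genes past the axis. In the stem-like gate 9 of the 10 lie past 2-fold to the right, in the basophil or mast-like gate 8 do, and in the lower panels 9 lie past 2-fold to the left.

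Depth moved with these levels, and its part was not tested beyond the following values. Over cells within a gate, the level of the 10 genes was correlated with the log UMIs of the cell at r = -0.71 in early erythroid-like (851 cells), -0.43 in Flt3 multipotent-like (664), -0.34 in basophil or mast-like (409), -0.20 in stem-like (687) and 0.0024 in granulocyte-monocyte-like cells (1604). UMIs of the cell enter both sides of this comparison. When each gate was cut into 3 bins by UMIs, the early erythroid-like bin with a median of 15084 UMIs had 2880 CPM of the 10 genes, and the bins with 32694 and 42439 had 708 and 616. In those 3 bins Egr1 went from 195 to 14.1 and 10.2 CPM and Jun from 935 to 184 and 152. In Flt3 multipotent-like cells the bins had 5625, 2563 and 1679 CPM. In granulocyte-monocyte-like cells the bins had 827, 695 and 825 CPM. In 2 low gates the 10 genes also moved with the doublet score of the cell, at r = 0.38 in late erythroid-like and 0.32 in granulocyte-monocyte-like cells.

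Cells of 8000 to 16000 UMIs were then compared, a window added after the data had been seen. Within it the 10 genes had 7858 CPM in stem-like (344 cells), 6381 in basophil or mast-like (240), 4583 in megakaryocyte-like (258), 4559 in Flt3 multipotent-like (270) and 4480 in early erythroid-like cells (104). They had 2342 in dendritic-like (145), 1587 in monocyte-like (151), 984 in granulocyte-monocyte-like (173) and 904 in late erythroid-like cells (20). The stem-like gate stayed highest for the sum, and for 6 of the 10 genes singly. For Fos this was by 811 against 810 CPM in basophil or mast-like cells, nearly a tie. Fosb and Dusp1 were highest in basophil or mast-like cells, Nr4a1 in Flt3 multipotent-like and Atf3 in dendritic-like cells. The late erythroid-like gate stayed lowest for the sum, on only 20 cells, while early erythroid-like cells were no longer among the low gates. Egr1 in the window had 724 CPM in stem-like, 331 in early erythroid-like and 18.4 in monocyte-like cells. Fewer genes passed 2-fold in the window, with 5 of the 10 higher in stem-like cells against 12.8% of all genes, and 2 of the 10 in basophil or mast-like cells against 5.04%. The mix of the other gated cells also differs in the window, and its part was not tested. In early erythroid-like cells 1 of the 10 was lower, against 18.2% of all genes.

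**Figure D4:**
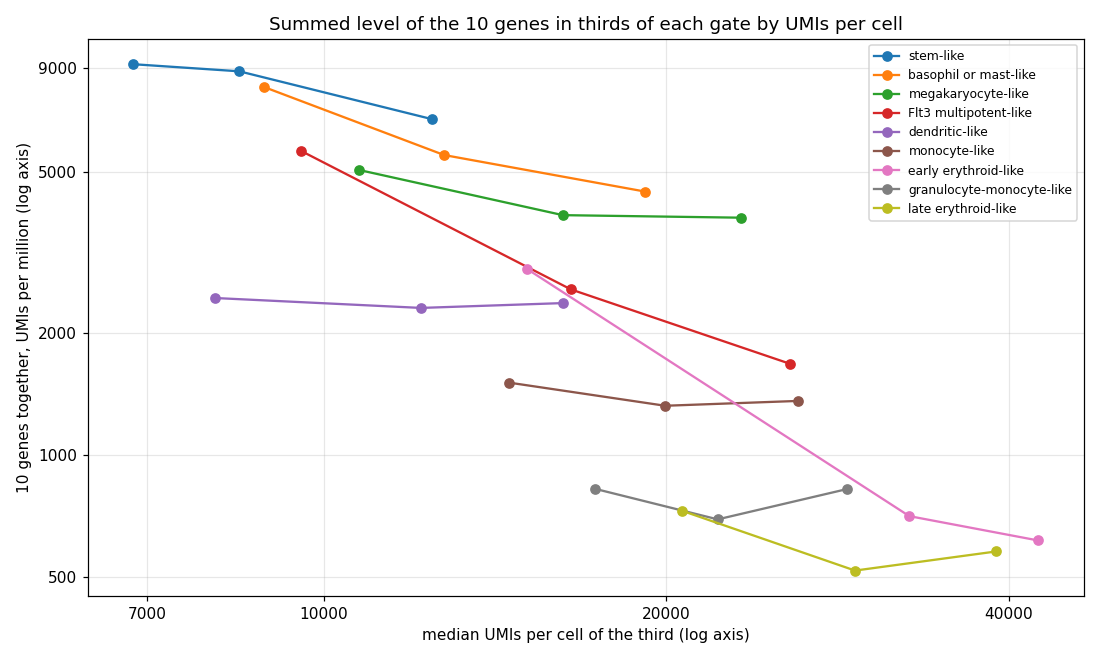
Summed level of the 10 genes (CPM, log axis) in 3 bins of each of 9 gates by UMIs per cell, plotted at the median UMIs of the bin (log axis), 1 library with 1 line per gate. The early erythroid-like line drops from 2880 to 616 while the granulocyte-monocyte-like line stays between 695 and 827.

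Whether the genes appear in the same cells was read from cells thinned to 5000 UMIs, as the odds ratio of detecting a pair together, with 0.5 cells added to each of the counts. A pair was summarised in a gate where both genes were detected in 5% to 95% of cells. Pairs of other genes were not summarised, so the counts above 1 have no background. In stem-like cells all 28 such pairs had an odds ratio above 1, with a median of 4.96 and a range from 1.39 (Fosb and Nr4a1) to 19.7 (Fosb and Jun). In basophil or mast-like cells all 28 were above 1, with a median of 4.97. The medians were 3.99 over 36 pairs in Flt3 multipotent-like, 3.76 over 28 in early erythroid-like, 3.02 over 36 in megakaryocyte-like, 2.51 over 45 in dendritic-like, 2.16 over 21 in late erythroid-like, 1.98 over 21 in monocyte-like and 1.69 over 21 in granulocyte-monocyte-like cells. Only 3 dendritic-like pairs, all with Nr4a1, and 1 late erythroid-like pair fell below 1. Cells are not replicates, so these values describe 1 library.

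Named pairs show the size of this. In stem-like cells with Fos, 90.4% had Egr1 (87.4% to 92.8%), and in those without Fos 46.9% did (39.4% to 54.5%). In early erythroid-like cells the same shares were 42.9% and 9.75%. In stem-like cells Jun was detected in 99.1% of cells with Fosb and 83.7% of cells without. In monocyte-like cells the pair that stood highest was Fos and Fosb, with an odds ratio of 7.26, and Fosb was detected in 31.3% of cells with Fos and 5.74% of cells without. Ier2 and Dusp1 in that gate had an odds ratio of 1.18. Granulocyte-monocyte-like cells also had Fos and Fosb as the highest pair, at 3.83.

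**Figure D5:**
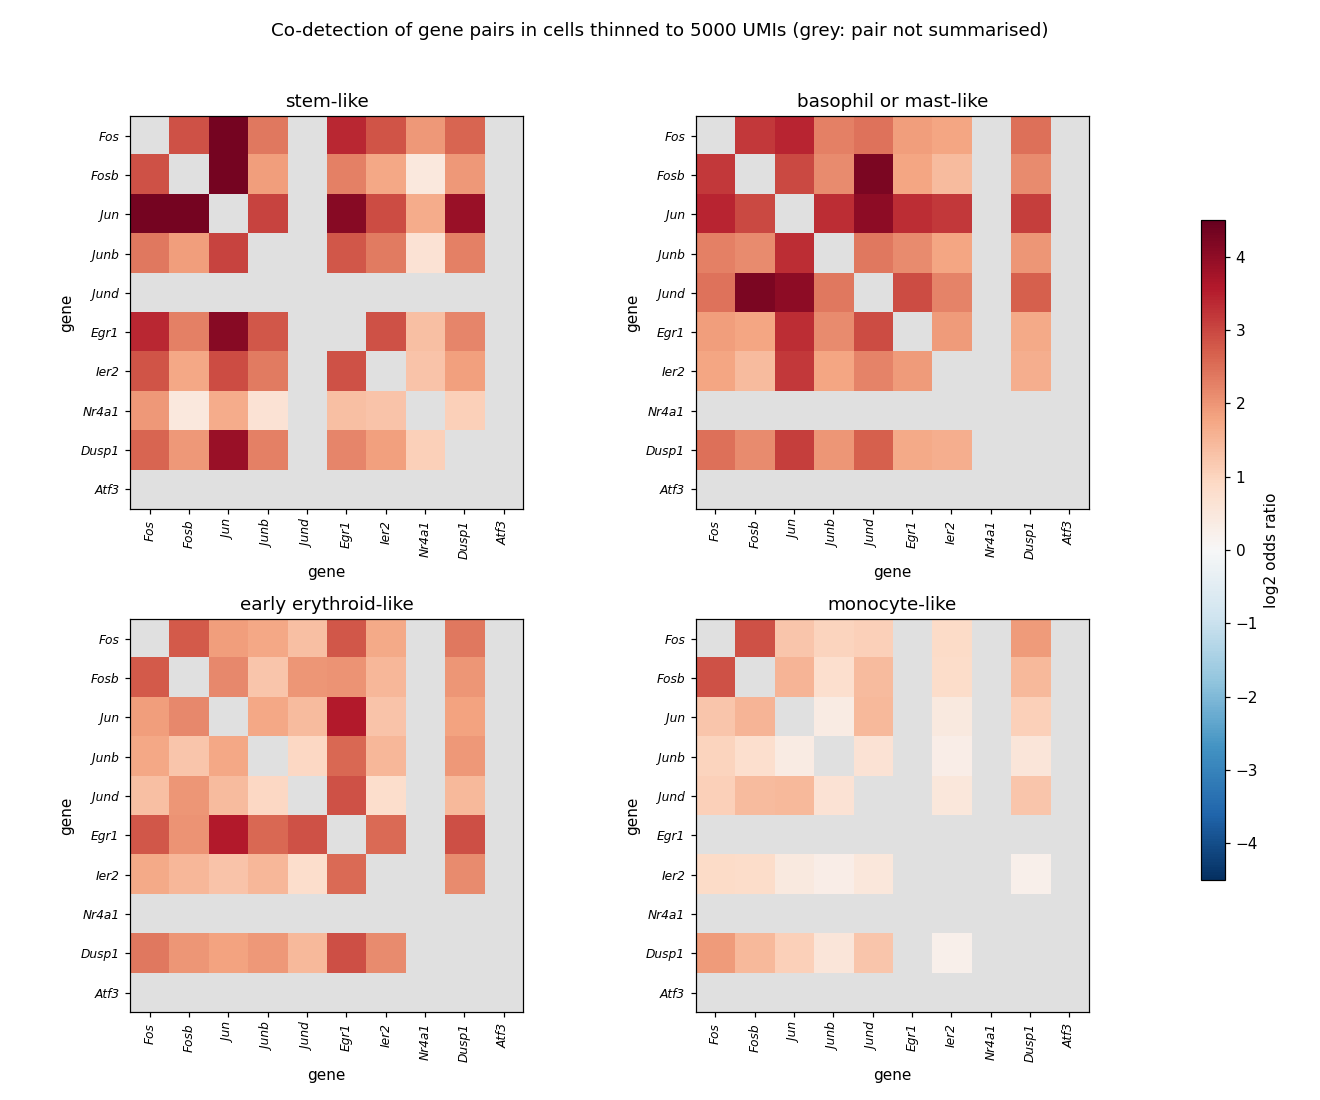
Log2 odds ratio of detecting each pair of the 10 genes in the same cell after thinning to 5000 UMIs, for 4 gates of 1 library (red above 0, grey for pairs not summarised). All summarised pairs are red, with medians on the odds ratio scale of 4.96 in stem-like, 4.97 in basophil or mast-like, 3.76 in early erythroid-like and 1.98 in monocyte-like cells.

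The number of the 10 genes seen in 1 thinned cell had a median of 7 in stem-like and in basophil or mast-like cells, 5 in megakaryocyte-like and dendritic-like cells, 4 in Flt3 multipotent-like, 3 in monocyte-like and 2 in granulocyte-monocyte-like and both erythroid-like gates. At least 7 were seen in 64.5% of stem-like cells (443 of 687) and 57.5% of basophil or mast-like cells, against 0.998% of granulocyte-monocyte-like cells and 0.612% of late erythroid-like cells. In the early erythroid-like gate, with the same median of 2, the share was 9.05% (77 of 851). None of the 10 was seen in 0.582% of stem-like and 11.0% of late erythroid-like cells.

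Other genes were ranked by their correlation with the summed score of the 10 genes over 6055 cells, centred within gates, with a member's own counts left out of the score. Of 7896 genes detected in at least 5% of cells, 37 reached r of 0.2, which is 0.469%, and the 8 members that could be tested were all among them. The 10 highest were Jun (r = 0.62), Egr1 (0.57), Jund (0.57), Fos (0.57), Fosb (0.52), Junb (0.50), Zfp36 (0.49), Dusp1 (0.48), Ier2 (0.46) and Btg2 (0.43). Zfp36 encodes a protein that destabilises inflammatory transcripts and Btg2 an antiproliferative factor, and both are immediate early genes themselves. The next were H3f3b (0.43), Neat1 (0.42), Klf6 (0.40) and Malat1 (0.38). Neat1 and Malat1 are RNAs kept in the nucleus, and the part of nuclear RNA in these correlations was not tested. All cells share 1 library, and the correlations are descriptions.

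Other immediate early genes were also higher in stem-like cells. Of 41 other immediate early genes, 35 had enough UMIs, and 22 of these were 2-fold or more higher (25.6% of all genes were) and 1 lower in stem-like cells, with a median ratio of 2.73 against 1.24 over all genes. Their 2 most abundant members were Zfp36l2, which limits transcript life, with 1185 CPM in stem-like cells and a ratio of 3.91, and Btg2, at 2.66. Ier3, which protects from cell death, was highest in basophil or mast-like cells at 714 CPM, and Id2, an inhibitor of basic helix-loop-helix factors, in dendritic-like cells at 952 CPM. Over cells, 11 of 24 tested genes of this list reached r of 0.2. Of 21 other AP-1 and ATF genes, 20 were tested, with 8 higher and 1 lower in stem-like cells, where 25.6% of all genes were higher. Their median ratio was 1.63 against 1.24 over all genes, and 0 of 13 reached r of 0.2. Among them Nfe2, a factor of red cell and platelet formation, had a ratio of 3.16 and Maf 14.2 in stem-like cells. Atf4, the effector of the integrated stress response, had 1.18, and Batf3, needed for a dendritic cell subset, had 160 CPM in dendritic-like cells and 0.455 in stem-like cells. Of 16 upstream kinases and factors, 5 were higher and 0 lower in stem-like cells, with a median ratio of 1.37. That is near the 25.6% higher and the median of 1.24 over all genes. Elk3, a partner of serum response factor, had a ratio of 2.85, Mrtfa, its coactivator, 1.42 and Map2k2 0.645, and 0 of 14 reached r of 0.2.

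Dissociation stress, which can induce these genes after the marrow leaves the animal, had no control here and its part was not tested. The values of a heat shock and dissociation list are given beside the result. The list summed to 6974 CPM in stem-like cells and 9650 CPM in the other gated cells, a ratio of 0.723. Of 15 tested genes 1 was 2-fold or more higher, where 25.6% of all genes were, and 3 were lower. Their median ratio was 0.671 against 1.24 over all genes. Hsp90ab1 (2791 CPM) and Hspa8 (1259 CPM) made up much of the stem-like sum. Apart from Nfkbiz, the list holds none of the other immediate early genes, of which 22 of 35 were 2-fold or more higher in stem-like cells. The list was highest in early erythroid-like cells, at 12404 CPM. Its most abundant genes, the chaperones Hsp90ab1 and Hspa8, had ratios of 0.775 and 0.637 in stem-like cells, and Hspa1a, an inducible chaperone, had 1.65 CPM over all cells kept. Cebpd, also on the list, had 0.301, whereas Nfkbiz, which stands on the immediate early list too, had 6.78. Within gates, the correlation of the list with the 10 genes lay between -0.57 (early erythroid-like) and 0.14 (stem-like), and the median r of its 13 tested genes was -0.06. Between gates, the median mitochondrial share was highest in stem-like cells, at 4.87%, against 3.27% in basophil or mast-like and 2.80% in granulocyte-monocyte-like cells. Its part was not tested. By mitochondrial share, the 3 bins of the stem-like gate, from low to high, had 7071, 8118 and 8979 CPM of the 10 genes. Those of the Flt3 multipotent-like gate had 1706, 2986 and 3916 CPM, and those of the early erythroid-like gate 1566, 916 and 751 CPM. The 385 barcodes left out only for a mitochondrial share of 7% or more had 1812 CPM, against 2060 CPM in the cells kept.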

How the data were processed

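Single-cell RNA-seq of 1 library was analysed. Per the methods, the authors prepared it with a 10x Genomics Chromium kit, and the sample's labels instead describe a bulk RNA kit. The submitters' processing notes name Cell Ranger 6.0.2 and mm10, with which the authors turned reads into UMI counts. Those deposited counts were raw integers that no scaling had touched. Barcodes were kept by the study's limits, with UMIs between 1000 and 50000, detected genes between 1000 and 6500 and less than 7% mitochondrial UMIs. The further library of deleted cells was not analysed here.

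Counts were handled in Python 3.11.15 with numpy 2.4.6, scipy 1.17.1 and scanpy 1.11.5. Cells were thinned to 5000 UMIs without replacement, and each marker gene was scaled over cells and capped at 3 SD. A cell joined the gate of its highest list score when this was at least 0.4 and exceeded the next by at least 0.2. These values were set after the data had been seen. Scrublet, at an expected rate of 6%, marked 265 cells, which were kept in the main values. CPM were taken from the summed counts of a gate. Intervals were exact: Poisson for levels, Clopper-Pearson for shares and conditional binomial for ratios. Ratios, gates, co-detection and correlations were tested on simulated data. The members, marker lists and gene lists were chosen with earlier results of these data known. Named genes were the 10 members, the 2 highest and the 2 with the widest range between gates (1 CPM added) of each list, and the 10 genes with the highest correlation; other genes named were chosen after their values were seen. One gene that this rule names is not reported here. Alternatives covered the cell filter, doublet calls, gates, denominator, UMI minimum, thinning, centring and a depth window.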

Additional observations from a re-analysis of the deposited data

How the results depend on the processing

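Without a replicate, no library could be left out, and 1 library limits every value to these cells. The granulocyte-monocyte-like and late erythroid-like counts of members past 2-fold stayed within 1.5 times under every setting run, and the stem-like count of 9 and the basophil or mast-like count of 8 under all but the depth window. The pairs above 1 in co-detection did so too, at thinning depths of 2500 and 10000 UMIs, where the stem-like median odds ratio was 3.47 and 6.94. With each cell weighted equally in place of summed counts, 0 genes were higher in megakaryocyte-like cells (5 in the summed counts), 5 were lower in early erythroid-like (8), 7 lower in monocyte-like (2) and 1 higher in dendritic-like cells (2). Fosb at 0.966 and Jund at 0.799 in dendritic-like cells and Junb at 0.894 in megakaryocyte-like cells then turned below 1. With doublet calls removed, 4 were lower in monocyte-like cells. With stricter gates, 2 were higher in Flt3 multipotent-like and 2 in monocyte-like cells. In the window of 8000 to 16000 UMIs, chosen after the data were seen, 5 were higher in stem-like, 2 in basophil or mast-like, 0 in megakaryocyte-like, 0 in monocyte-like and 1 in dendritic-like cells, while 8 were lower in monocyte-like and 1 in early erythroid-like cells. There the following ratios turned: Atf3 in stem-like (0.951), Fosb (0.960) and Egr1 (0.979) in Flt3 multipotent-like, Fos in monocyte-like (0.748), Fosb (0.542), Junb (0.718), Jund (0.490) and Dusp1 (0.696) in dendritic-like, Junb (0.665), Ier2 (0.967), Dusp1 (0.692) and Atf3 (0.717) in megakaryocyte-like, and Jun (1.13), Junb (1.005), Jund (1.12), Egr1 (1.15), Dusp1 (1.29) and Atf3 (1.51) in early erythroid-like cells. The cause was not tested. Outside the main values, the share of all genes past 2-fold is given only for the window, in stem-like, basophil or mast-like and early erythroid-like cells. The other changed counts cannot be told from a shift of all genes. Without centring within gates, 352 genes reached r of 0.2 in place of 37. Over all deposited barcodes the heat shock list summed to 9537 CPM in place of 9426.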
